A study of Mus musculus with 26 samples.

Results

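The comparison described here is that of YFP-positive liver cells after 7 days on a DDC diet with YFP-positive cells after 3 days, on 3 and 4 Agilent 1-colour arrays. These 7 arrays were chosen by the sorted fraction and the days of treatment in the sample labels, out of 20 arrays with a scanner file and 26 samples in the whole series. All mice were offspring of a Foxl1-Cre line and a Rosa26 reporter line (Foxl1-Cre; RosaYFP), 6 to 10 weeks old, so that any cell in which the Foxl1 promoter had driven the recombinase, then or earlier, carried YFP for good. The day 7 group holds YFP-positive cells of mice fed DDC for 7 days (replicates 1, 3 and 4), and the day 3 group YFP-positive cells of mice fed DDC for 3 days (replicates 1, 2, 3 and 4). YFP-negative cells of the same time points (3 arrays each), which were sorted from the same kind of mouse, are used for comparison, and YFP-positive cells of day 14 (2 arrays) and unsorted non-parenchymal cells of mice on chow (day 0, 2 arrays) are used for levels. All sorted groups came from liver cells other than hepatocytes, depleted of cells with CD45, the surface protein of leukocytes. The fraction is defined by lineage history and not by present expression of Foxl1, and the labels do not say whether cells of several mice were pooled into a sample, nor that each replicate came from other mice, so p-values measure the spread between these samples, which may in part be technical.

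DDC (3,5-diethoxycarbonyl-1,4-dihydrocollidine) blocks heme synthesis in hepatocytes, and porphyrin that builds up plugs small bile ducts. The liver answers with a ductular reaction, in which cells with biliary markers multiply around the portal tracts together with macrophages, neutrophils and matrix-producing cells. Cells marked by the Foxl1 promoter are known as a population with biliary markers that appears in this injury and that can give rise to cholangiocytes and hepatocytes in culture. The question put to the data is therefore how the marked cells differ between an early and a later time of the same injury.

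Signal is given below as a level, which is the log2 processed signal of a probe minus the 75th percentile of its array, so that 0 is the brightness of that percentile. A change is the mean level at day 7 minus the mean level at day 3, in log2 units, with its standard error (SE) from a linear model over all 7 groups of the series. A gene passed the test when its limma p, two-sided and adjusted over 26650 genes by Benjamini-Hochberg, was under 0.05. Levels of different genes come from different probes and are not set against each other.

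The 7 arrays differed from each other within a day as much as between the days. The share of spots well above background was 81.9 to 87.2 percent on the day 7 arrays and 81 to 87.7 percent on the day 3 arrays. Replicate 4 of day 3 was the dimmest of the 7, with a median signal of 208 against 359 to 410 on the other 6. Across genes, the levels of 2 arrays correlated with r between 0.875 and 0.925 within day 7 (3 pairs), between 0.784 and 0.916 within day 3 (6 pairs) and between 0.793 and 0.924 from one day to the other (12 pairs, median 0.9 against 0.876 within day 7 and 0.861 within day 3). Genes are not independent replicates, and these values are given as a description. The slides also differ between the groups, since only 1 slide held an array of each day (replicate 1 of day 7 and replicate 2 of day 3).

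The cell type markers show where the arrays part. Keratin 19 (Krt19), the intermediate filament protein that marks bile duct cells, had levels of 2.9, 1.41 and 1.41 on the day 7 arrays and 2.79, 2.26, -1.47 and 4.48 on the day 3 arrays. Replicate 4 of day 3 was thus the highest and replicate 3 of day 3 the lowest of all 7. The level of Ptprc, the gene of CD45, was -0.86, 4.02 and 3.92 at day 7 and 3.72, 1.51, 2.16 and -7.55 at day 3. CD45 was used to remove leukocytes in the sort, and its transcript was nonetheless well above background on 3 of 3 day 7 arrays and on 3 of 4 day 3 arrays. Only replicate 4 of day 3 was below that mark. Hba-a1, an alpha-globin gene of red cells, had levels of -1.67, 1.48 and 1.57 at day 7 and 3.52, 2.96, 6.37 and 2.06 at day 3, with the highest value on replicate 3 of day 3. Albumin (Alb), the main secreted protein of hepatocytes, was well above background on all 7 arrays, with levels of 4.33, 4.02 and 4.5 at day 7 and 5.32, 4.42, 4.11 and 6.22 at day 3. In RNA of many cells, fewer cells of a type and less RNA per cell cannot be told apart.

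**Figure D1:**
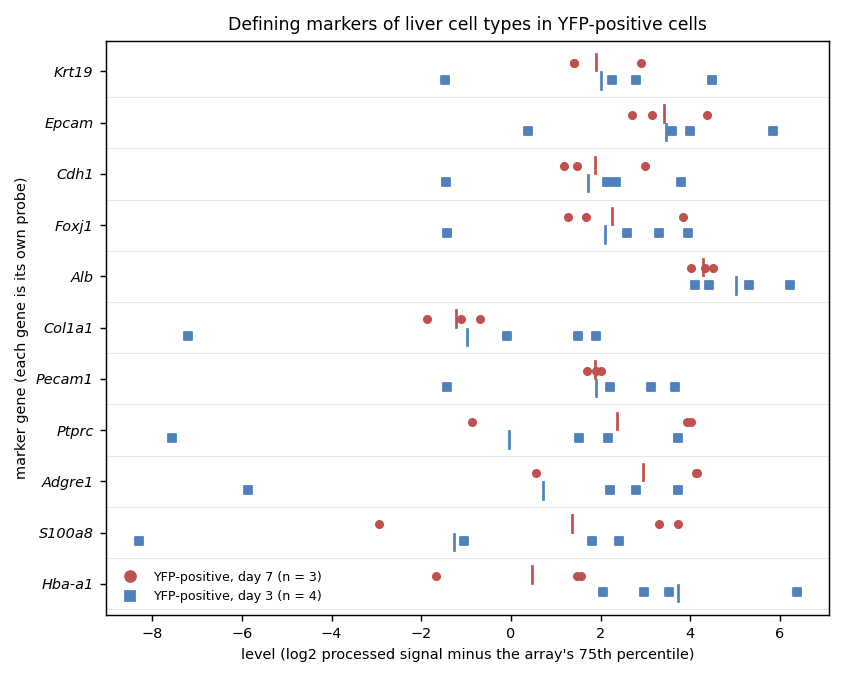
Level (log2 processed signal minus the array's 75th percentile) of 11 marker genes on each array of YFP-positive cells, with day 7 as circles (n = 3) above day 3 as squares (n = 4) and a vertical bar at each group mean. The epithelial genes Krt19, Epcam, Cdh1 and Foxj1 each have replicate 3 of day 3 lowest, while Ptprc, Adgre1 and S100a8 each have 1 day 3 array far to the left, at -7.55, -5.86 and -8.29.

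The probes behind 6 of the genes on which the description turns are shown with their mm9 positions as the files give them, since each value is the brightness of 1 such 60-base oligonucleotide. They are Krt19 (chr11:100002392-100002451, minus strand), Myc (chr15:61820925-61820984, plus strand), Mmp9 (chr2:164780303-164780362, plus strand), St8sia6 (chr2:13578761-13578820, minus strand), Hba-a1 (chr11:32183775-32183956, plus strand) and Hba-a2 (chr11:32196744-32196803, plus strand). An annotation of mm9 was not used here, so the exon of each probe is not given. The interval of the Hba-a1 probe is longer than the probe, which means that its sequence is split in the genome. Capitals mark the 30 bases over which the probes of both alpha-globin genes cover the same stretch, of which 27 are the same and 3 differ.
Krt19: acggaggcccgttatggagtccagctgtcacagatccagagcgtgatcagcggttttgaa
Myc: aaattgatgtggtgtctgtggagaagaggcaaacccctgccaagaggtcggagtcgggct
Mmp9: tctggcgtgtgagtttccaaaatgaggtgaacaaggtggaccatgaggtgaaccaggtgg
St8sia6: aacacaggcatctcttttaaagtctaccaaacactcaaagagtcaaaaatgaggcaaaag
Hba-a1: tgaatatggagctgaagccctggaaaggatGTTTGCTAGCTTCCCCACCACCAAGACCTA
Hba-a2: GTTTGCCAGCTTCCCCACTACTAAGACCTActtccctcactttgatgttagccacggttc

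No gene of 26650 passed the adjusted test between day 7 and day 3 (0%), and the smallest adjusted p was 0.627 (limma, Benjamini-Hochberg). At an unadjusted p under 0.05 there were 1204 genes (4.52%), of which 572 were higher (2.15%) and 632 lower at day 7 (2.37%). The median change over all genes was -0.12, with 11338 genes higher (42.5%) and 15312 lower. Of 26542 genes measured on all 7 arrays, 1034 had no overlap between the 3 day 7 values and the 4 day 3 values (3.9%), 446 of them higher (1.68%) and 588 lower at day 7 (2.22%). The counts of such genes in the lists below are to be read beside these shares. The precision was limited for many genes: the 95% interval of the change lay within a 4-fold difference in either direction for 13022 genes (48.9%), so that for the rest a change of 4-fold or more was not excluded. In the same fit, the step to day 14 from day 7 in YFP-positive cells had 9 genes past the adjusted test (0.0338%), and the day 7 against day 3 comparison in YFP-negative cells had 0, with 983 at an unadjusted p under 0.05 (3.69%). Whether these counts differ between the comparisons was not tested. Leaving out 1 array at a time, 0 or 1 gene passed and 919 to 1761 had an unadjusted p under 0.05. The single genes were unnamed transcripts, AK041872 without replicate 1 of day 3, AK053990 without replicate 1 of day 7 and AK081464 without replicate 3 of day 7.

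**Figure D2:**
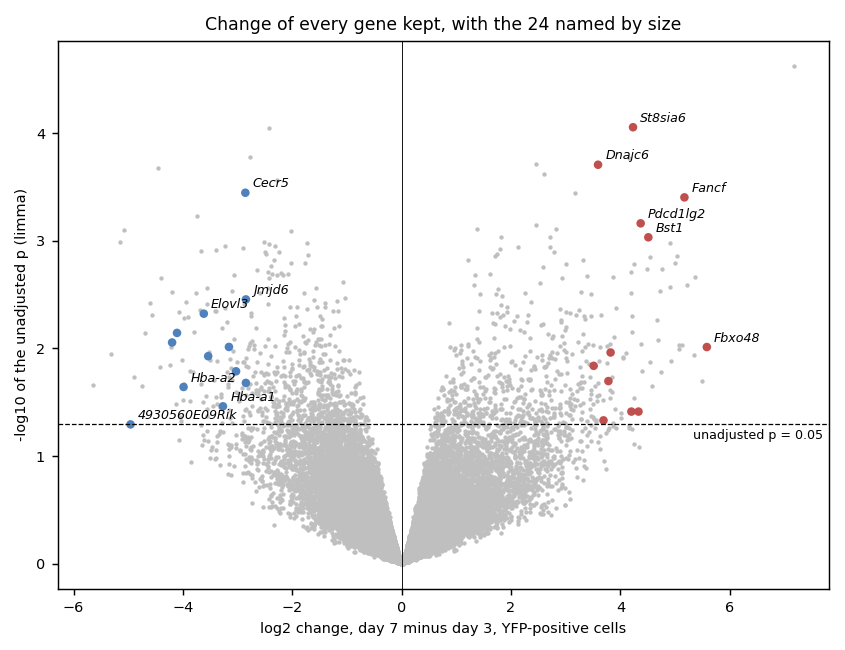
Change between day 7 and day 3 in YFP-positive cells (x axis, log2) against -log10 of the unadjusted limma p (y axis) for each of 26650 genes in grey, with the 24 genes named by size in red (higher at day 7) and blue (lower at day 7). Points lie above the dashed line, which marks the unadjusted threshold, on both sides of 0, and 0 of 26650 genes passed after adjustment.

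The 12 largest differences upward among named genes without overlap of arrays, all well above background on each day 7 array, ranged from 3.51 to 5.58. None passed the adjusted test, and for 10 of the 12 at least 1 day 3 array was not well above background, so the size of the difference rests on dim values there. Except for Fbxo48 (-1.07), the day 7 minus day 3 value in YFP-negative cells was also above 0 for each of the 12. It ranged from 0.15 for Mrgprb2 to 4.54 for Tktl1, with 2.28 for Fancf, 2.12 for St8sia6 and 2.07 for Bst1. These differences are thus not shown to be particular to the marked cells. St8sia6, a sialyltransferase that adds sialic acid to glycan chains, had levels of -1.74, -2.74 and -3.71 at day 7 and -7.02, -6.94, -6.06 and -7.84 at day 3. All day 7 arrays lay above all day 3 arrays by more than the spread within either group. The difference was 4.23 ± 0.80 (SE, unadjusted p = 8.78e-05, adjusted p = 0.703, limma), and 2 of 2 further probes of the gene had the same sign. Dnajc6, which encodes auxilin, a chaperone that strips the coat off clathrin vesicles, had levels of -2.88, -4.93 and -3.92 at day 7 and -9.03, -6.95, -7.9 and -6.11 at day 3, a difference of 3.59 ± 0.74. Fancf, a subunit of the Fanconi anaemia DNA repair complex, had levels of -4.98, -1.88 and -2.67 at day 7 and -7.63, -9.79, -9.34 and -6.63 at day 3, a difference of 5.17 ± 1.15. Both genes were well above background on 3 of 3 day 7 arrays and on 2 of 4 day 3 arrays.

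Bst1 (CD157), a membrane-anchored enzyme that makes cyclic ADP-ribose and was first found on bone marrow stromal cells, had levels of 0.22, 1.26 and 0.27 at day 7 and -0.31, -5.94, -4.14 and -5.34 at day 3. Its difference of 4.51 ± 1.10 rests on 3 low day 3 arrays, while replicate 1 of day 3 lay close under the lowest day 7 array. Pdcd1lg2 (PD-L2), a ligand of the T cell inhibitory receptor PD-1, had levels of -3.09, -1.1 and -2.63 at day 7 and -7.07, -7.83, -4.32 and -7.36 at day 3, a difference of 4.37 ± 1.03. Mrgprb2, a receptor of mouse mast cells, differed by 3.78 ± 1.46. The summed level of the 20 macrophage markers is given below, and its part in these values was not tested.

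Gas2l3, which links actin filaments to microtubules, had levels of 1.12, 0.57 and 1.18 at day 7 and -1.96, -0.49, -0.71 and -7.07 at day 3. The low value of replicate 4 of day 3 carries much of the difference, which was 3.51 ± 1.28 with that array and 2.01 without it. Frem2, a protein of the epithelial basement membrane, differed by 3.69 ± 1.70, but the 1 further probe of the gene had the opposite sign. The F-box gene Fbxo48 (5.58 ± 1.89), Bnipl (4.33 ± 1.91), the transketolase-like gene Tktl1 (4.20 ± 1.85) and the histone H2B gene Hist1h2be, now named H2bc6 (3.82 ± 1.32), complete the 12. For Fbxo48 and Tktl1 only 1 of 4 day 3 arrays was well above background.

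Among the 12 largest differences downward were both alpha-globin genes. Hba-a2 had levels of -4.34, 0.4 and 0.79 at day 7 and 2.48, 2.23, 5.43 and 1.62 at day 3, a difference of -3.99 ± 1.58, or -2.35 without replicate 1 of day 7. Hba-a1 differed by -3.27 ± 1.41. The probes of these genes share the stretch shown in capitals above, so the values of the pair cannot be taken as independent measurements. The beta-globin gene Hbb-b1 had levels of -2.84, 1.58 and 1.25 at day 7 and 3.13, 2.95, 6.36 and 0.03 at day 3, and its groups overlapped. The summed level of 12 erythroid markers was 2.75, 3.3 and 2.88 at day 7 and 4.66, 4.43, 7.48 and 3.67 at day 3 (log2). Every day 3 array thus lay above every day 7 array. On replicate 3 of day 3, Hba-a1 (6.37) and Hbb-b1 (6.36) made up most of that sum. The list medians overlapped, at -4.64, -3.7 and -3.99 at day 7 and -4.12, -4.27, -3.21 and -4.25 at day 3. Of these 12 genes, 3 were higher and 9 lower at day 7 (median -1.20, against -0.96 in YFP-negative cells). Slc4a1, the anion exchanger of the red cell membrane, was the other member without overlap (-1.88 ± 1.54). These 2 members, both lower, stand against 2.22% of all genes, and a count this small is not read as a result about the list. The part of red cell RNA in other differences was not tested.

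Cecr5, now Hdhd5, a hydrolase-like protein, had levels of -5.66, -4.22 and -3.8 at day 7 and -0.12, -1.74, -2.96 and -1.97 at day 3. The difference was -2.86 ± 0.63 (unadjusted p = 0.000357, limma), with the same sign in 1 of 1 further probe, and all 7 arrays were well above background. Jmjd6, a nuclear lysyl hydroxylase, had levels of -0.47, -2.19 and -2.7 at day 7 and 0.89, 1.4, -0.01 and 1.98 at day 3, a difference of -2.85 ± 0.83, and 1 of its 2 further probes had the same sign. Elovl3, an enzyme that lengthens very long fatty acids, had levels of -7.8, -8.05 and -7.57 at day 7, of which 1 of 3 was well above background, and -3.92, -4.23, -2.71 and -5.88 at day 3. Its difference was -3.62 ± 1.10.

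The remaining 7 lower genes were well above background on all 4 day 3 arrays. Olfml1, an olfactomedin-like secreted protein (-4.11 ± 1.33), Brdt, a bromodomain protein of the testis (-3.54 ± 1.24), Rpp25, a subunit of ribonuclease P (-3.16 ± 1.07), and Rab36, a small GTPase of vesicle traffic (-3.03 ± 1.12), were well above background on 2 or 3 day 7 arrays. The genes 4930560E09Rik, now Ttc39d (-4.96 ± 2.34), 3110047P20Rik, now Nwd2 (-4.20 ± 1.40), and the vomeronasal receptor gene Vmn2r8 (-2.85 ± 1.11) were well above background on 1 of 3 day 7 arrays. The difference in 4930560E09Rik rests on replicates 1 and 4 of day 3, at -1.92 and 0.71, since the other 2 were at -7.57 and -7.42 against -7.68, -9.42 and -9.95 at day 7.

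**Figure D3:**
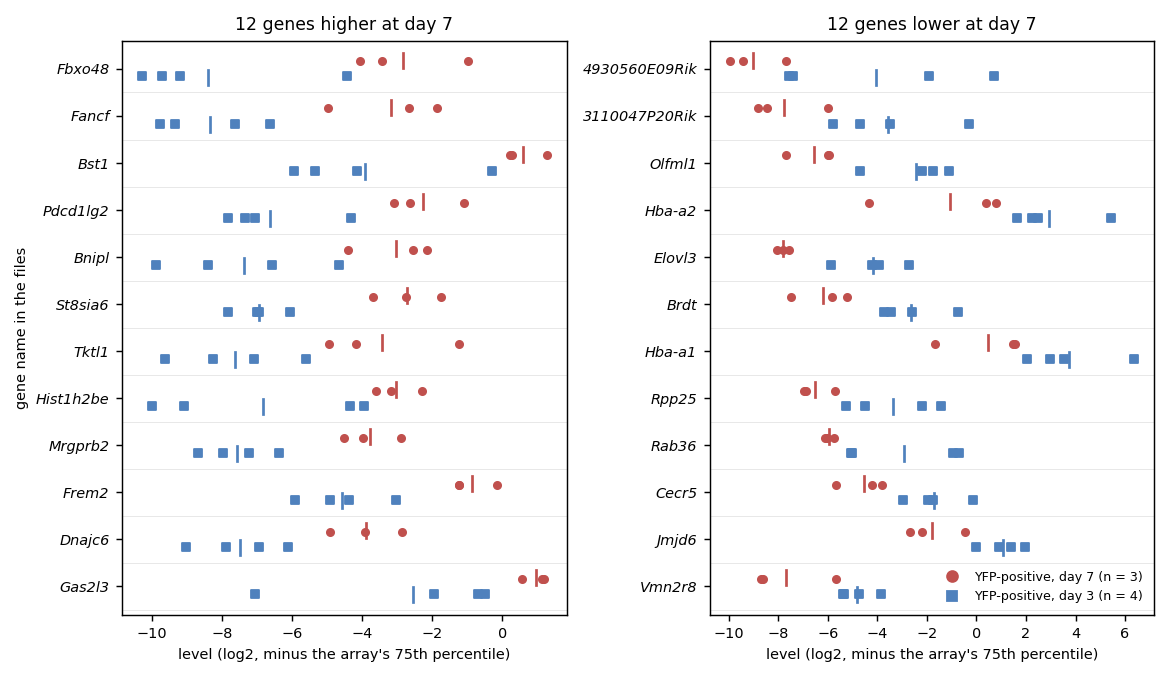
Level of the 12 largest upward (left) and 12 largest downward (right) differences without overlap of arrays, with day 7 as circles (n = 3) above day 3 as squares (n = 4) and vertical bars at the group means, x axis in log2 relative to the array's 75th percentile. St8sia6 has the narrowest day 3 spread of the 12 on the left, with all day 7 arrays at -3.71 or above and all day 3 arrays at -6.06 or below.

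The epithelial programme of the marked cells was not distinguishable between the days. Of 26 biliary and progenitor markers measured, 13 were higher and 13 lower at day 7, and the median change was 0.02 (all genes -0.12). Of these markers 0 passed and 0 had arrays without overlap, against 3.9% of all genes. The difference was -0.11 ± 1.26 for Krt19, 1.12 ± 1.34 for Krt7, another bile duct keratin, -0.05 ± 1.24 for Epcam, an adhesion protein of ducts and progenitors, and 0.10 ± 1.14 for Sox9, a transcription factor of duct cells. Sox9 had levels of 3.85, 1.79 and 1.99 at day 7 and 2.88, 3.02, -0.19 and 4.07 at day 3, with the day 7 arrays inside the range of the day 3 arrays. For osteopontin (Spp1) the interval was narrower, with a difference of -0.13 ± 0.63, and the water channel Aqp1, which duct cells share with endothelium, differed by -0.10 ± 0.26. The lowest difference of the list was -1.70 ± 1.05 for Dmbt1, a secreted scavenger receptor of epithelia.

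These epithelial values rest on arrays that differ strongly within day 3. The median of the 26 biliary changes was 0.65 without replicate 4 of day 3, -0.61 without replicate 3 of day 3 and -0.42 without replicate 1 of day 7. The 95% interval was -2.78 to 2.57 for Krt19 and -2.68 to 2.58 for Epcam, and it lay within a 4-fold difference in either direction for 9 of 26 genes (34.6%). A change of 4-fold in most of these markers would thus not have been told from none. The summed level of the biliary list was 8.39, 7.55 and 7.61 at day 7 and 8.13, 8.04, 6.89 and 9.04 at day 3 (log2), and the groups overlapped.

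Junction genes followed the same arrays. Of 18 genes of epithelial junctions and polarity, 9 were higher and 9 lower, with a median of 0.04 and 0 past the test. E-cadherin (Cdh1), the adhesion protein of epithelial cells, had levels of 2.98, 1.48 and 1.18 at day 7 and 2.35, 2.14, -1.44 and 3.8 at day 3, a difference of 0.17 ± 1.14. The tight junction gene Cldn4 differed by 0.89 ± 1.22, and Ildr1, a protein of tricellular junctions, by 1.98 ± 1.17, the largest difference of the list. Of 15 genes of motile cilia, 7 were higher and 8 lower (median -0.07). Foxj1, the transcription factor that switches on motile cilium genes, had levels of 3.84, 1.27 and 1.67 at day 7 and 2.58, 3.3, -1.43 and 3.96 at day 3, a difference of 0.16 ± 1.36. Ccdc113, a cilium protein, differed by -3.07 ± 0.83 (unadjusted p = 0.00206, adjusted p = 0.803, limma), and its groups overlapped because replicate 3 of day 3 was at -6.37 against -5.78 to -7.61 at day 7.

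**Figure D4:**
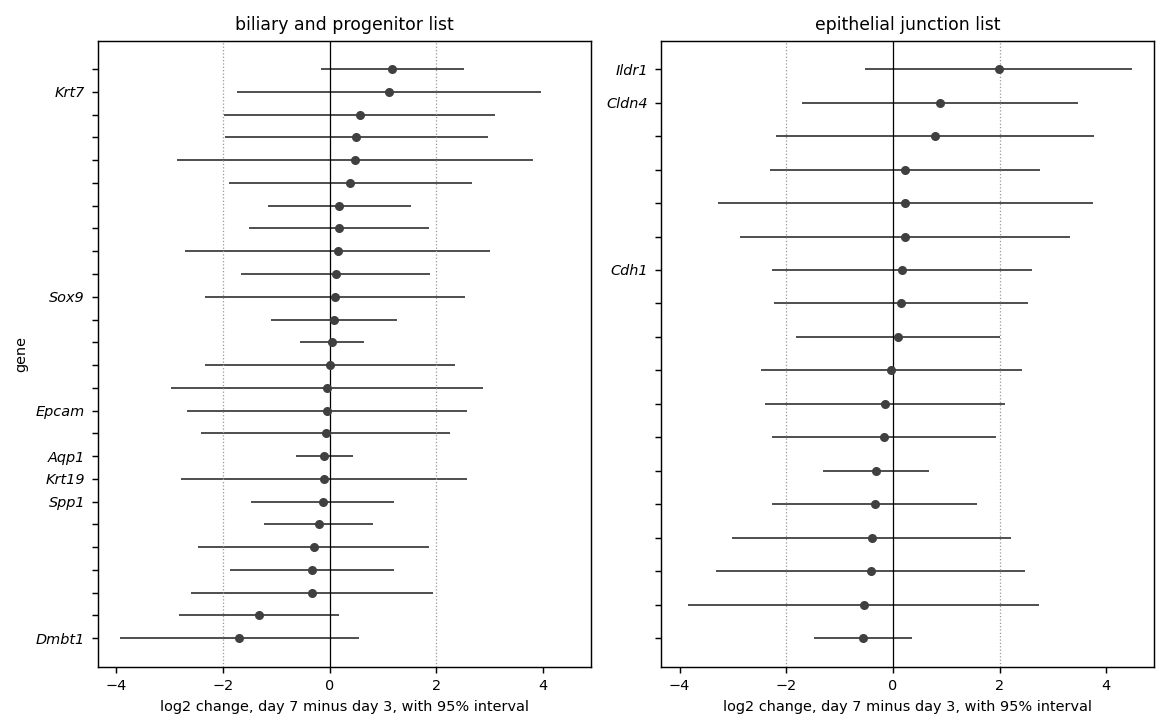
Change between day 7 and day 3 (x axis, log2) with its 95% limma interval for 26 biliary and progenitor genes (left) and 18 epithelial junction genes (right), sorted by size, with dotted lines at 4-fold and with names for the genes described in the text. Each interval includes 0, and 9 of the 26 biliary intervals lie between the dotted lines.

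Hepatocyte and fetal liver genes did not separate the days either. Of 21 hepatocyte genes measured, 8 were higher and 13 lower at day 7, with a median of -0.31 and 0 past the test. Alb differed by -0.74 ± 0.52 (-0.34 without replicate 4 of day 3) and the fibrinogen gene Fga by -1.47 ± 0.74. The coagulation factor gene F2 differed by 1.86 ± 1.33, with its lowest value, -6.18, on replicate 4 of day 3. The summed level of the list was 5.87, 5.38 and 6.53 at day 7 and 7.16, 6.14, 5.98 and 7.46 at day 3. Alpha-fetoprotein (Afp), the fetal counterpart of albumin, had levels of -4.17, -2.52 and -2.83 at day 7 and -1, -4.76, -3.31 and -1.36 at day 3, a difference of -0.57 ± 1.28. The RNA-binding protein gene Igf2bp3 (1.71 ± 0.91) and Gpc3 (1.29 ± 0.64), both known from fetal liver, were among the 4 of 10 fetal and imprinted genes with higher values at day 7 (median -0.22).

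Most macrophage and neutrophil markers had higher means at day 7, but the amounts and the direction depended on single arrays and on the processing. Over all alternatives, which are listed under the processing below, the median change of the macrophage list ranged from -1.55 to 1.81. That of the neutrophil list ranged from -1.9 to 3.55. Of 20 macrophage and Kupffer cell markers, 19 were higher and 1 lower at day 7, with a median of 0.85 and 0 past the test or without overlap. Emr1, now Adgre1, which encodes the macrophage antigen F4/80, had levels of 0.56, 4.16 and 4.12 at day 7 and 3.73, 2.21, 2.79 and -5.86 at day 3, a difference of 2.23 ± 1.97. Replicate 1 of day 7 and replicate 4 of day 3 were the low arrays, and the other 5 lay between 2.21 and 4.16. Without replicate 4 of day 3 the difference was 0.04 and the median of the list -0.25, and without replicate 1 of day 7 they were 3.42 and 1.81. Within the 1 slide that held both days, the difference of Emr1 was -1.65 (1 array minus 1 array). The summed level of the list was 6.49, 8.53 and 8.45 at day 7 and 8.4, 7.62, 8.1 and 4.25 at day 3.

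Of 12 neutrophil genes measured, 11 were higher and 1 lower, with a median of 1.52. That median was 0.33 without replicate 4 of day 3, 0.21 without replicate 3 of day 7, 0.09 without replicate 4 of day 7 and 3.55 without replicate 1 of day 7. S100a8, a calcium-binding protein that neutrophils hold in large amounts, had levels of -2.95, 3.31 and 3.72 at day 7 and 2.4, -1.04, 1.81 and -8.29 at day 3, a difference of 2.64 ± 2.44, or 0.30 without replicate 4 of day 3. The summed level was 2.61, 6.66 and 6.75 at day 7 and 6.15, 4.04, 5.11 and 4.79 at day 3. On replicate 4 of day 3 nearly all of that sum was Lcn2, an iron-binding protein that injured epithelium also makes, which was at 4.76 there. Among 18 lymphoid genes, 7 were higher and 11 lower (median -0.20), and Ptprc differed by 2.40 ± 2.17, or by -0.10 without replicate 4 of day 3. Lck, a T cell kinase, was the 1 member without overlap, against 3.9% of all genes. Its levels were -7.96, -5.42 and -5.58 at day 7 and -2.93, -4.39, -3.68 and -4.01 at day 3 (-2.57 ± 0.96). Summed over the lymphoid list, the level was 2.2, 4.85 and 4.87 at day 7 and 5.2, 3.16, 3.38 and 1.89 at day 3.

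More mesenchymal and endothelial markers were lower than higher at day 7, as were most genes of the array. Of 24 stellate cell and myofibroblast genes, 5 were higher and 19 lower at day 7, with a median of -0.33 (-1.27 without replicate 4 of day 3 and -0.05 without replicate 4 of day 7), and 0 passed or had arrays without overlap. The collagen gene Col1a1 had levels of -1.12, -0.69 and -1.87 at day 7 and -0.09, 1.9, 1.49 and -7.21 at day 3. Its difference was -0.25 ± 1.56 with all arrays and -2.33 without replicate 4 of day 3. The receptor gene Ngfr, which quiescent stellate cells carry, differed by -2.39 ± 0.99. Cygb, a globin of stellate cells, differed by -3.18 ± 1.24, with its highest value, 4.6, on replicate 4 of day 3. Smooth muscle actin (Acta2) differed by -0.07 ± 0.29 and was thus measured tightly. Of 19 endothelial genes, 5 were higher and 14 lower (median -0.24, -0.72 without replicate 4 of day 3 and 0.32 without replicate 3 of day 3), and 14 of the 19 intervals lay within 4-fold (73.7%). The endothelial adhesion protein Pecam1 had levels of 1.69, 1.9 and 2.02 at day 7 and 2.22, 3.12, 3.65 and -1.42 at day 3. Summed over the stellate list, the level was 6.38, 6.86 and 6.46 at day 7 and 6.85, 7.12, 6.98 and 6.85 at day 3, and that of the endothelial list 7.26, 7.5 and 7.39 at day 7 and 7.27, 8.04, 8.62 and 6.67 at day 3. The groups overlapped in both lists.

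**Figure D5:**
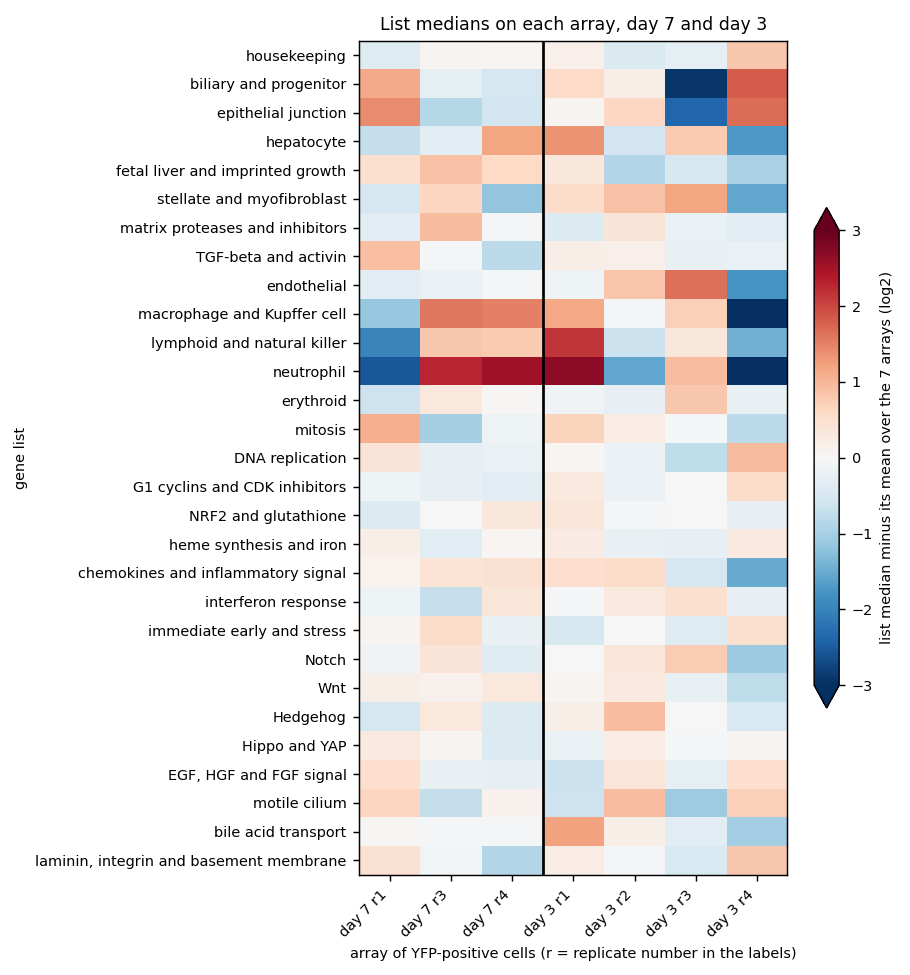
Median level of each of 29 gene lists on the 3 day 7 arrays (left of the line) and the 4 day 3 arrays (right), each minus its mean over the 7 arrays (log2, colours end at 3 in either direction; r is the replicate number). Replicate 4 of day 3 is high in the biliary and low in the macrophage and neutrophil rows, replicate 3 of day 3 is low in the biliary and junction rows, and replicate 1 of day 7 is low in the neutrophil row.

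Genes of cell division did not separate the days. Of 23 mitosis genes, 14 were higher and 9 lower at day 7, and 0 passed. Their median was 0.30, with -0.36 without replicate 1 of day 7 and 0.62 without replicate 3 of day 7, and 10 of 23 intervals lay within 4-fold (43.5%). The proliferation marker Mki67 had levels of 3.47, 1.71 and 2.76 at day 7 and 2.44, 2.49, 1.56 and 2.1 at day 3, a difference of 0.49 ± 0.56. Polo-like kinase 1 (Plk1), which drives entry into mitosis, was the 1 member without overlap, against 3.9% of all genes. Its levels were -0.44, -1.11 and -1.17 at day 7 and -1.42, -2.65, -1.27 and -1.58 at day 3 (0.82 ± 0.47, or 0.52 without replicate 2 of day 3). Among 20 DNA replication genes, 10 were higher and 10 lower (median 0.02), and 14 of 20 intervals lay within 4-fold (70%). The replicative helicase subunit Mcm2 differed by -0.51 ± 0.64 and the sliding clamp Pcna by -0.11 ± 0.27. Among 15 G1 cyclins and inhibitors, 7 were higher and 8 lower (median -0.01), and 14 of 15 intervals lay within 4-fold (93.3%). Cyclin D1 (Ccnd1) differed by -0.40 ± 0.54. Cdk6, a kinase of the G1 phase, had levels of 2.82, 2.88 and 2.65 at day 7 and 2.63, 2.14, 0.84 and 2.31 at day 3, with no overlap (0.80 ± 0.51, or 0.42 without replicate 3 of day 3).

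Myc, a transcription factor of growth that responds early to mitogens, was the most separated member of the 20 immediate early and stress genes. Its levels were 2, 2.34 and 2.04 at day 7 and 0.46, 1.65, 1.04 and -0.3 at day 3. The day 7 arrays lay close together (2.13 ± 0.18, SD, n = 3) above a wider day 3 group (0.71 ± 0.83, SD, n = 4), and the difference was 1.42 ± 0.43 (2.67-fold, unadjusted p = 0.00447, adjusted p = 0.926, limma). Both further probes of the gene had the same sign, and the difference was 1.08 without replicate 4 of day 3 and 0.35 within the 1 shared slide. In YFP-negative cells the day 7 against day 3 difference of Myc was -0.01, and the test of the difference between the fractions gave 1.43 (unadjusted p = 0.0365, limma), which did not pass after adjustment. In the list as a whole, 16 genes were higher and 4 lower at day 7, with a median of 0.31. The stress gene Atf3 differed by 1.70 ± 0.86, and Fos by 0.66 ± 0.57, where replicate 4 of day 3 (3.97) lay apart from the other day 3 arrays (2.11, 2.2 and 2.15).

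Inflammatory signals had mostly higher values at day 7. Of 23 genes of chemokines and inflammatory signal, 17 were higher and 6 lower, the median was 0.42, and 0 passed or had arrays without overlap. The monocyte chemokine Ccl2 had levels of 3.28, 3.2 and 1.16 at day 7 and 1.31, 1.51, 0.1 and 2.29 at day 3 (1.24 ± 0.65). The neutrophil chemokine Cxcl2 had levels of -0.24, 3.18 and 1.65 at day 7 and 0.2, -0.94, -1.24 and -2.9 at day 3 (2.75 ± 0.97), and Tnf differed by 2.24 ± 1.04. Cxcl2 and interleukin 1 beta (Il1b, 1.52 ± 1.25) were both lowest on replicate 1 of day 7 among the day 7 arrays and on replicate 4 of day 3 among the day 3 arrays. Those are also the arrays with the lowest macrophage sums, and the part of macrophage RNA in these values was not tested.

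Of 23 interferon response genes, 10 were higher and 13 lower at day 7, with a median of 0 and 0 past the test. The arrays of 3 did not overlap, each lower at day 7, against 2.22% of all genes, and a count this small is not read as a result about the list. Isg15, a ubiquitin-like protein induced by interferon, had levels of -2.79, -1.57 and -1.28 at day 7 and -0.76, -0.57, -1.16 and 2.14 at day 3 (-1.79 ± 0.62, unadjusted p = 0.0108, limma, or -1.05 without replicate 4 of day 3). Bst2 (tetherin), which holds budding viruses at the membrane, had levels of 0.09, 1.39 and 0.91 at day 7 and 1.67, 1.51, 2.17 and 2.38 at day 3 (-1.14 ± 0.39), and the peptide transporter Tap1 differed by -1.40 ± 0.53, or -0.91 without replicate 4 of day 3. Ifit1 differed by -0.08 ± 0.84. In YFP-negative cells, the day 7 minus day 3 values were -1.12 for Isg15, -1.36 for Bst2 and -0.31 for Tap1.

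Genes of oxidative stress, glutathione and heme synthesis gave no gene past the test. Of 21 genes of the oxidative stress factor NRF2 and of glutathione metabolism, 9 were higher and 12 lower (median -0.03), and 15 intervals lay within 4-fold (71.4%). The arrays of 2 did not overlap, both lower, against 2.22% of all genes, and they are given as values only. The quinone reductase Nqo1 differed by -0.31 ± 0.49 and the glutathione synthesis gene Gclc by -0.03 ± 0.27. Nfe2l2, which encodes NRF2, had levels of 2.87, 2.87 and 2.59 at day 7 and 2.94, 2.94, 3.17 and 3.58 at day 3, with no overlap (-0.38 ± 0.26), but only 1 of its 2 further probes had the same sign and the mean of its probes gave 0.29. Ugdh, which makes UDP-glucuronic acid, was at -0.24, -0.21 and 0.27 at day 7 and 0.6, 0.44, 0.71 and 0.9 at day 3 (-0.72 ± 0.42). Of 18 genes of heme synthesis and iron handling, 12 were higher and 6 lower (median 0.16), 15 intervals lay within 4-fold (83.3%), and the rate-limiting enzyme Alas1 differed by 0.27 ± 0.34.

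Genes of signalling pathways were measured in 6 lists. Of 26 Wnt genes, 10 were higher and 16 lower (median -0.22), and 0 passed. Without overlap were 2 higher genes and 1 lower, against 1.68% and 2.22% of all genes, and these few are given as values only. The ligand Wnt10a had levels of -2.47, -5.13 and -3.06 at day 7 and -7.23, -6.44, -7.73 and -6.18 at day 3, all well above background (3.34 ± 1.02, unadjusted p = 0.00499, limma). Its mean was -1.05 in YFP-positive cells of day 14, and -7.78 and -7.51 in YFP-negative cells of days 7 and 3. The R-spondin gene Rspo1, a secreted enhancer of Wnt signals, had levels of -0.34, -0.13 and -0.96 at day 7 and -1.61, -2.4, -2.99 and -6.8 at day 3 (2.98 ± 0.95, or 1.86 without replicate 4 of day 3). The ligand Wnt5a was at -7.74, -6.43 and -8.15 at day 7, of which 1 of 3 was well above background, and at -6.04, -2.64, -6.4 and -5.37 at day 3 (-2.33 ± 0.86, or -1.50 without replicate 2 of day 3). The Wnt target Axin2 differed by -0.12 ± 0.73, and Lgr5, a receptor for R-spondins, by -0.22 ± 0.83.

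Other pathways of the ductular reaction gave no gene past the test. In the Notch list, 7 genes were higher and 9 lower (median -0.10), with 0.10 ± 0.56 for the receptor Notch1, -0.04 ± 0.60 for the ligand Jag1 and -1.52 ± 0.62 for the target Hes1. In the Hedgehog list, 5 were higher and 6 lower (median -0.07), and the target Gli1 differed by -0.61 ± 0.54. In the Hippo list, 8 were higher and 6 lower (median 0.05), and the coactivator Yap1 differed by -0.03 ± 0.50. Its DNA-binding partner Tead4 was the 1 member without overlap (-0.49 ± 0.37), against 3.9% of all genes. In the list of EGF, HGF and FGF signals, 8 were higher and 13 lower (median -0.20), with 0.59 ± 0.65 for the receptor Egfr. The receptor Erbb2 was without overlap, at -3.02, -4.59 and -3.96 at day 7 and -2.43, -2.88, -2.74 and 0.68 at day 3 (-2.01 ± 0.74, or -1.17 without replicate 4 of day 3). Of 22 TGF-beta and activin genes, 11 were higher and 11 lower (median 0.06), and Id3, a target of BMP signals, was without overlap (-1.50 ± 0.72, or -0.90 without replicate 3 of day 3).

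Of 19 matrix proteases and inhibitors, 10 were higher and 9 lower at day 7 (median 0.10), and 0 passed. The arrays of 2 did not overlap, both higher, against 1.68% of all genes, and they are given as values only. Mmp9, gelatinase B, had levels of -1.17, -0.28 and 0.19 at day 7 and -1.7, -4.61, -3.32 and -3.61 at day 3. All day 7 arrays lay above all day 3 arrays, with replicate 1 of each day nearest to each other, and the difference was 2.89 ± 0.97 (7.41-fold, unadjusted p = 0.00949, adjusted p = 0.950, limma). In YFP-negative cells the day 7 minus day 3 value of Mmp9 was 2.01. Neutrophils store this protease. Replicate 1 of day 3 had the highest neutrophil sum and the highest Mmp9 of that day, and replicate 1 of day 7 the lowest of both at day 7. Between the days the order was not the same. Replicate 1 of day 7 had a neutrophil sum of 2.61 and Mmp9 at -1.17, against 6.15 and -1.7 on replicate 1 of day 3. The part of neutrophil RNA was not tested. The urokinase gene Plau, which activates plasmin, had levels of 2.56, 3.19 and 2.47 at day 7 and 1.76, 2.35, 2.39 and -0.36 at day 3 (1.20 ± 0.54, or 0.57 without replicate 4 of day 3). The stromal protease Mmp2 differed by -0.94 ± 1.21. Of 20 laminin, integrin and basement membrane genes, 8 were higher and 12 lower (median -0.09), and of 12 bile acid transport genes 6 were higher and 6 lower (median -0.03).

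Over all lists, 530 of 532 genes were measured (Pck1 and Ly6g were not), of which 261 were higher and 269 lower at day 7, with a median of 0. Among 12 housekeeping genes, 3 were higher and 9 lower (median -0.14), all 12 intervals lay within 4-fold (100%), and beta-2 microglobulin (B2m) was the 1 without overlap (-0.23 ± 0.26). Over all lists, the genes without overlap of arrays numbered 20 (3.77%), 7 higher and 13 lower, against 3.9% of all genes. The share among the listed genes is thus near that of the whole array and is not a result about them.

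The day 7 minus day 3 change of YFP-positive cells was set against that of YFP-negative cells in the same model. No gene passed the adjusted test of the difference (0%), and 767 had an unadjusted p under 0.05 (2.88%). The largest moderated t among the genes named by the rule was that of Gckr, the hepatic regulator of glucokinase. In YFP-positive cells its levels were -5.9, -5.45 and -3.9 at day 7 and -3.06, -2.28, -2.68 and -2.38 at day 3, with no overlap (-2.48 ± 0.63), whereas the day 7 minus day 3 value in YFP-negative cells was 2.19, a difference between the fractions of -4.67 (unadjusted p = 0.000138, limma). Nans, which makes the sialic acid precursor of glycans, had levels of 1.66, 1.23 and 2.27 at day 7 and 1, 0.04, 0.18 and -1.65 at day 3 in YFP-positive cells (1.83 ± 0.52), against a change of -1.17 in YFP-negative cells (difference 3.00). Gm1060, now Drc1, a subunit that ties the dynein arms of motile cilia, differed by 1.80 ± 0.67 in YFP-positive and by -1.88 in YFP-negative cells (difference 3.67). Keg1 (-4.72), the T cell gene E430004N04Rik, now Themis (-5.55), the meiotic gene Ccdc36, now Iho1 (-4.18), and the olfactory receptor gene Olfr1076 (-6.58) were the other genes with a difference between the fractions below 0. Of these, E430004N04Rik was well above background on 1 of 3 day 7 and 2 of 4 day 3 YFP-positive arrays, Ccdc36 on 0 of 3 and 2 of 4, and Olfr1076 on 1 of 3 and 3 of 4, so their sizes rest on signal near background. The ribonuclease Parn (3.41), the anion exchanger Slc26a6 (1.98) and Sytl2, an adaptor of vesicle transport (3.32), were the others above 0. For Parn, the 1 further probe did not have the same sign of change in YFP-positive cells. For Sytl2 the difference came from YFP-negative cells, since the YFP-positive value was -0.04 ± 0.66.

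The authors' deposited table gives no direct comparison of the days, only each sorted group against day 0, as signed linear folds with a false discovery rate. In the authors' deposited table, St8sia6 was 23.1-fold above day 0 at day 7 (false discovery rate 0 percent) and 1.6-fold at day 3 (27.11 percent). For Myc, the authors' deposited table gives 8-fold at day 7 (0 percent) and 3.21-fold at day 3 (6.08 percent). Krt19 has 7.09-fold at day 7 (1 percent) and 7.47-fold at day 3 (11.27 percent) in the authors' deposited table. Wnt10a has 11.4-fold at day 7 (1.12 percent) and 1.45-fold at day 3 (39.54 percent) there, in the authors' deposited table. Both values of each pair share the day 0 samples, so they are set side by side and not compared. The series holds 4 day 0 and 4 YFP-positive day 7 samples, of which 2 and 3 had a scanner file. The deposited folds may thus rest on samples not used here, and their sizes are not set against the levels above.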

How the data were processed

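RNA of sorted mouse liver cells was hybridised to 1-colour Agilent arrays after amplification (NuGEN WT-Ovation Pico, Cy3 labelling), per the labels' protocols. The deposited scanner files hold the processed signal intensity of each spot, made by the authors with Feature Extraction (10.5.1.1 per the file headers, 9.53 per the submitters' processing notes), on array design 014868. The authors' deposited table holds signed fold changes against day 0 and false discovery rates in percent, and was used for the values credited to it.

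From 43379 non-control spots of 20 arrays, log2 intensity minus the array's 75th percentile was taken, outlier spots were dropped, spots of a probe were averaged, and of 41174 probes the 39595 that 2 or more arrays detected well above background were used. The brightest probe stood for each of 26650 genes, of which 8646 had several. A value was missing for 277 genes on some array, and the fit leaves such an array out for that gene. Current names were matched through RefSeq tables (GRCm38.p6), 16249 by accession, 2385 by symbol and 859 by synonym, and 7157 kept the file's name. limma 3.58.1 in R 4.3.3 fitted all 7 groups together. The script was tested on simulated data.

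The genes named by size were the 12 highest and 12 lowest differences among genes without overlap, well above background on each array of the higher group and with an established symbol. From each of 29 lists (532 genes), the first member and up to 3 without overlap were named. For the difference between the fractions, 5 genes in each direction were named by moderated t. The members and lists were chosen with earlier results of these data known, and other genes were named after their values were seen. The main fit did not pair the samples by replicate number. The alternatives were normexp (offset 50), quantile and median scaling, other probe rules and filters, array weights, slides as a block, only the groups compared, a replicate block and leaving out each array. Samples without a scanner file were not analysed here. The number of arrays limits the precision.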

Additional observations from a re-analysis of the deposited data

Results flagged for a closer look

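In YFP-positive cells of day 3, 7 of 110 values tested had 1 array far from the other 3, by Dixon's 95% criterion, which chance passes in about 1 of 20 groups. On replicate 4 of day 3 these were Mmp2 at -8.01, Emr1 at -5.86, Fos at 3.97 and Erbb2 at 0.68. On replicate 1 of day 3 they were the ligand gene Shh at -1.88 and the bile acid transporter gene Slc10a1 at -0.80. On replicate 3 of day 3 it was the median of the erythroid list at -3.21.

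For 3 of the 81 named genes, the arrays of the days did not overlap in either fraction and the direction was opposite, so that every YFP-positive array of day 7 lay on one side of every day 3 array and every YFP-negative array of day 7 on the other side. Genes whose YFP-negative arrays overlapped, such as Ugdh, are not among the 3. The test of the difference between the fractions gave 3.00 for Nans (unadjusted p = 0.00136), 3.67 for Gm1060 (unadjusted p = 0.00192) and -4.67 for Gckr (unadjusted p = 0.000138), by limma. None of these passed after adjustment. All 3 were named for a large moderated t of this same difference, so their opposite directions follow in part from that choice. The share of all genes that meet this rule was not counted, and the 3 are given as values only.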

How the results depend on the processing

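With slide as a fixed block, 1 gene passed (AK053585, 5.58 ± 0.47, adjusted p = 0.024, limma), 50.6% of genes were higher at day 7 against 42.5%, and the median of all genes was 0.01. With normexp 38.5% were higher. Leaving out 1 array at a time, the genes past the test numbered 0 to 1, and those of the difference between the fractions 0 to 1. Those without overlap numbered 1855 to 4302 (6.98% to 16.2%, against 3.9% with all 7 arrays). Fewer arrays make a lack of overlap more frequent by itself, so the rise as such is not read as dependence on single arrays. Among fits that left out 1 array of day 7, the count was 2092 (7.88%) without replicate 4 and 2563 (9.65%) without replicate 3. It was 4302 (16.2%) without replicate 1. These fits had equal numbers of arrays, and the top of the range came from leaving out replicate 1 of day 7. The single genes of the difference were AK041872 without replicate 1 of day 3 (-7.78, adjusted p = 0.0296, limma) and Olfr714 without YFP-negative replicate 4 of day 7 (-5.63, adjusted p = 0.00837, limma). Counts at an unadjusted p under 0.05 were 800 with normexp and 797 with only the groups compared, against 1204, and 512 with normexp for the difference, against 767. The cause was not tested. The replicate block gave 0 genes past the test and 1292 unadjusted, and 0 and 842 for the difference. The deviations of same-numbered arrays from their group means correlated with r of -0.24, 0.21 and -0.19, and those of other pairs with r of -0.27 to 0.31. With so few arrays these values cannot decide whether the samples were paired by number.

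Of 57 named genes whose difference was above its SE, 51 kept their sign in all 19 alternatives. Signs turned for Nfe2l2 with the mean of probes (0.29) and for Ptprc without replicate 4 of day 3 (-0.10, where leaving out single arrays gave up to 4.01). With slide as a fixed block they turned for Emr1 (-1.10), Ptprc (-1.98) and S100a8 (-1.82). Within the 1 shared slide, as 1 array minus 1 array, the values were -1.65 for Emr1, -2.37 for Ptprc, -1.91 for S100a8, 0.82 for E430004N04Rik and 0.24 for Olfr1076. Of 24 within their SE, 17 turned.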
